A study of Homo sapiens with 6 samples.

Results

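The replication-dependent histone genes are the 75 gene entries, under 74 names, whose name in both deposited tables begins with HIST1H, HIST2H, HIST3H or HIST4H, out of 58302 genes listed. Of 87 entries with that start, 12 were dropped because their names end as pseudogenes do or carry a hyphen, and a single read fell on those 12. By name, the members were 6 H1 linker histone entries and 17 H2A, 22 H2B, 15 H3 and 15 H4 core histone entries. The RNA that came down with each antibody was sequenced (RIP-seq) from HepG2, a human hepatocellular carcinoma line, in a series whose title is about PABPC4 and MYC in that cancer. The groups were PABPC4 RIP, an antibody against PABPC4 in cells overexpressing PABPC4 (2 libraries), PABPC1 RIP, an antibody against PABPC1 in cells overexpressing PABPC1 (2 libraries), and IgG RIP, rabbit IgG with 1 library from each of those populations. No group from cells without overexpression was analysed here, and the labels name no separate cultures. P-values from limma therefore cover only the spread between libraries, which may be technical. In IgG that spread also holds any difference between the 2 cell populations. Each RIP group is set against IgG that comes in part from the other population. PABPC4 RIP and PABPC1 RIP differ in antibody and in overexpressed protein, and these cannot be told apart. P-values of the authors' test and Fisher's exact test cover counting error only.

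Replication-dependent histone genes supply the histones that package newly made DNA, and their mRNAs build up in S phase. Most animal mRNAs end in a poly(A) tail, which the cytoplasmic poly(A)-binding proteins PABPC1 and PABPC4 bind, whereas these mRNAs end in a conserved stem-loop bound by SLBP, which takes over the part of the tail in export, translation and decay. Some of these genes also give a polyadenylated form from a downstream site, most often in cells that have left the cell cycle.

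Reads per library and gene length were recovered from the deposited folds and p-values, and the libraries of each antibody are called A and B because the tables do not show which replicate each is. The PABPC4 libraries held 850190 and 841327 reads in genes, the PABPC1 libraries 289217 and 277552, and the IgG libraries 133030 and 94235. Nuclear-encoded genes whose reads were recovered took 81.0% and 79.5% in PABPC4 RIP, 54.6% and 60.2% in PABPC1 RIP, and 39.98% and 42.1% in IgG. The remainder held the mitochondrial genes and genes whose reads were not recovered, among them the mitochondrial ribosomal RNAs MT-RNR1 and MT-RNR2. Reads not recovered by gene numbered 134936 and 141483 in PABPC4 RIP, 118748 and 98515 in PABPC1 RIP, and 75224 and 51276 in IgG. How many of them fell in nuclear-encoded genes is not known, so every level below depends on which total is used. RPM is a gene's reads scaled to all reads in genes of that library. Nuclear RPM is scaled to the reads recovered in nuclear-encoded genes. All 12 hepatocyte markers had reads, with ALB and APOB among them. The 9 blood cell markers also all had reads. Summed, they were lower in RIP, at 757.5 and 604 RPM in PABPC4 RIP and 1345 and 1466 in PABPC1 RIP, against 3683 and 3788 in IgG. Haemoglobin genes led this sum, as HBB, HBA2 and HBA1 gave 503, 123 and 107 of its 847 IgG reads. LYZ and CD74 were not lower in RPM, at ratios to IgG of 1.003 and 1.09 in PABPC4 RIP and 1.14 and 1.15 in PABPC1 RIP. The remaining blood markers had ratios below 1 for both antibodies. Summed over libraries, the 5 fibroblast markers had 14.2 RPM in PABPC4 RIP, 40.6 in PABPC1 RIP and 128 in IgG. Both lists were at their highest in IgG, where histone reads were at their highest per nuclear read but not in RPM. The part of both lists in the histone results was not tested. All libraries are immunoprecipitates from HepG2 cells, and the source of the blood and fibroblast reads was not tested. PABPC1 mRNA stood at 591 and 676 RPM in PABPC4 RIP and 595 and 634 in PABPC1 RIP, against 286 and 318 in IgG. In nuclear RPM it stood at 729 and 850.5 in PABPC4 RIP and 1089 and 1053 in PABPC1 RIP, against 714.5 and 756 in IgG, so the groups of the 2 antibodies overlapped in RPM and both PABPC1 libraries were higher in nuclear RPM. PABPC4 mRNA stood at 162 and 183 RPM in PABPC4 RIP, 111 and 155 in PABPC1 RIP, and 75.2 and 42.5 in IgG. In nuclear RPM it stood at 200.5 and 230.2 in PABPC4 RIP, 202.7 and 257.3 in PABPC1 RIP, and 188.0 and 100.9 in IgG. The groups of the 2 antibodies overlapped on that scale.

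Histone mRNAs were present in all 6 libraries, and their place relative to IgG turned on the total used. Together the members had 1889 and 1947 RPM in the PABPC4 libraries, 1255 and 1301 in the PABPC1 libraries, and 1082 and 1231 in the IgG libraries. Both PABPC4 libraries lay above the other 4 on this scale, and both PABPC1 libraries lay just above both IgG libraries. The summed ratio was 1.66 for PABPC4 over IgG (exact 95% counting interval 1.47 to 1.89), 1.11 for PABPC1 over IgG (0.961 to 1.28) and 1.501 for PABPC4 over PABPC1 (1.39 to 1.63). In nuclear RPM the order changed, with 2333 and 2448 in PABPC4 RIP, 2299 and 2160 in PABPC1 RIP, and 2708 and 2925 in IgG. Both IgG libraries were then the highest. The ratio became 0.847 for PABPC4 over IgG (0.747 to 0.964), 0.789 for PABPC1 over IgG (0.685 to 0.913) and 1.07 for PABPC4 over PABPC1 (0.989 to 1.16). These intervals cover counting error only, and with 2 libraries against 2 the smallest two-sided exact permutation p is 0.333.

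**Figure D1:**
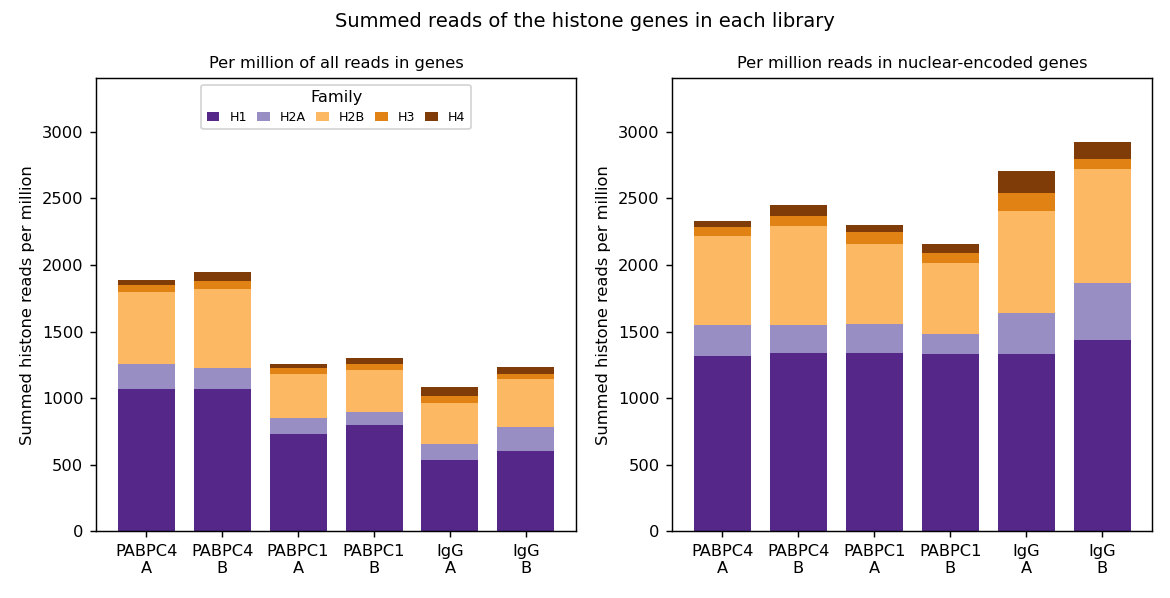
Stacked bars of histone reads in each library, by family, in RPM (left) and nuclear RPM (right). On the left both PABPC4 libraries are the tallest, at 1889 and 1947; on the right both IgG libraries are, at 2708 and 2925, and the H1 segment is nearly level across the 6.

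Linker and core histones are given apart here. The H1 genes had 1319 and 1341 nuclear RPM in PABPC4 RIP, 1336 and 1328 in PABPC1 RIP, and 1335 and 1437 in IgG, so the groups overlapped. The H1 ratio on that scale was 0.965 for PABPC4 over IgG (interval 0.806 to 1.16) and 0.966 for PABPC1 over IgG (0.792 to 1.19). The core histone genes had 1014 and 1108 nuclear RPM in PABPC4 RIP, 963 and 832 in PABPC1 RIP, and 1373 and 1488 in IgG, with both IgG libraries above the other 4. Their ratio was 0.735 for PABPC4 over IgG (0.615 to 0.884) and 0.620 for PABPC1 over IgG (0.504 to 0.767). H1 made up 55.6% of all histone reads in PABPC4 RIP (exact 95% interval 53.9% to 57.4%), 59.8% in PABPC1 RIP (56.1% to 63.4%) and 48.9% in IgG (42.7% to 55.1%). The interval of IgG overlaps that of PABPC4 and not that of PABPC1. H2B made up 29.6%, 25.4% and 29.0% in the same order of groups, H2A 9.13%, 8.43% and 12.6%, H3 2.87%, 3.59% and 4.20%, and H4 2.74%, 2.76% and 5.34%. On nuclear reads the H4 sum was the lowest relative to IgG of the 5 families, at 0.435 for PABPC4 (0.246 to 0.828) and 0.408 for PABPC1 (0.196 to 0.873), from only 14 IgG reads.

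A few genes carried most of the signal. Of 75 members, 55 had a read and 20 had none, among them 7 H2B, 5 H3, 4 H2A and 4 H4 entries. Members were kept by name alone, so pseudogenes with other names may be among those without a read. The members had 3244 reads in PABPC4 RIP, 724 in PABPC1 RIP and 262 in IgG. HIST1H1E and HIST1H1C held 52.3% of these 4230 reads, and the 20 genes with the most reads held 90.1%. Recovered gene lengths ran from 156 to 5477 bases with a median of 642, against 3322 over all genes with a length. The 156 bases of HIST1H4A rest on 1 read, where 4 solutions fitted and the smallest was taken. That length is therefore uncertain and may be too short. Per length, HIST1H1E ranked 21st of 7987 fitted genes in PABPC4 RIP at 889 RPKM (RPM for each kilobase of gene), 23rd in PABPC1 RIP at 689 RPKM and 26th in IgG at 514 RPKM. The median of the 24 histone genes fitted was 40.3 RPKM in PABPC4 RIP, 24.8 in PABPC1 RIP and 25.3 in IgG, against medians over all fitted genes of 8.03, 5.97 and 4.03 RPKM in those groups.

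**Figure D2:**
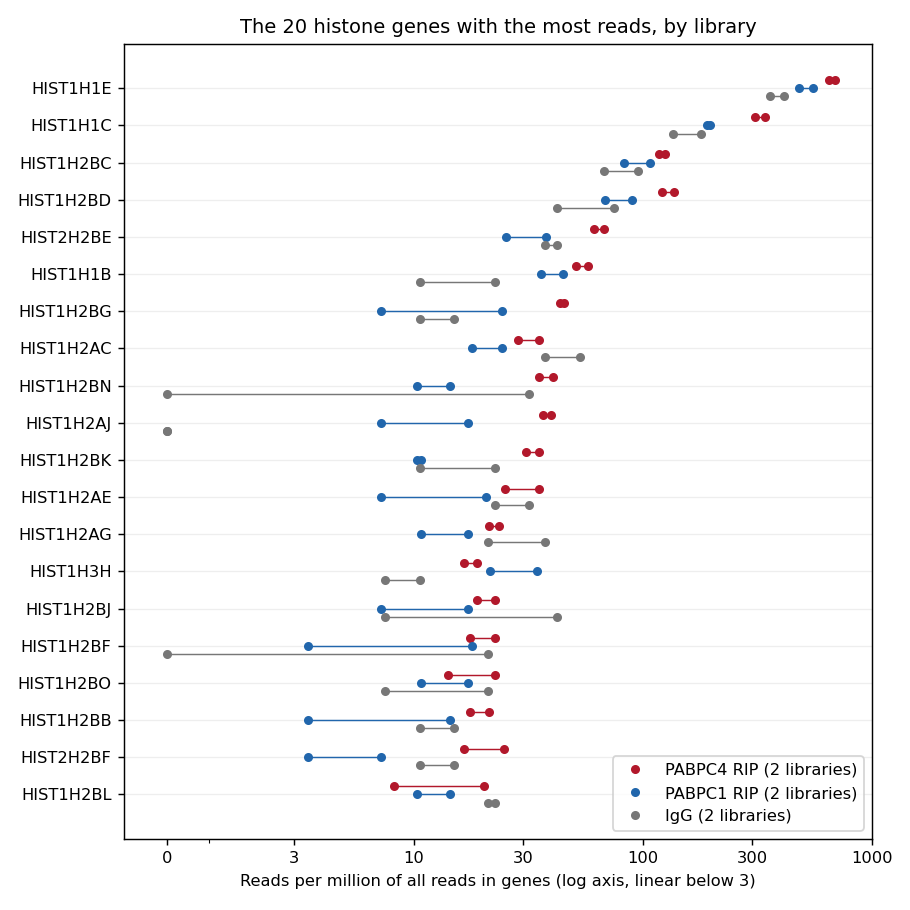
RPM (log axis, linear below 3) for the 20 histone genes with the most reads; each point is a library and a line joins the 2 libraries of a group. HIST1H1E sits at 689 and 651 in PABPC4 RIP, 484 and 555 in PABPC1 RIP and 361 and 414 in IgG, and below the first 6 genes the IgG points rest on a few reads each.

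Against IgG, 2 histone genes passed the authors' test in PABPC4 RIP and 0 in PABPC1 RIP. The authors' deposited table for PABPC4 called 5.54% of 21455 genes higher and 0.900% lower at an adjusted p under 0.05; of the 54 histone genes with a p-value there, 2 were higher and 0 lower. Among genes with at least 20 PABPC4 reads, a limit set after seeing the data, 14.0% were called higher, against 2 of 27 histone genes. At an unadjusted p under 0.05, 6 were higher and 0 lower, where all genes gave 11.7% and 1.85%. The authors' deposited table for PABPC1 called 1.34% of 17565 genes higher and 0.194% lower, and 0 of 45 histone genes in either direction. There, 1 histone gene was higher and 0 lower at an unadjusted p under 0.05, where all genes gave 5.98% and 1.05%. Fisher's exact test also called 0, against 1.77% of all genes higher and 0.194% lower, and so did limma voom, which called 0.351% of 7987 genes higher and 0.513% lower. Among genes with at least 20 PABPC1 reads, 6.48% were called higher in that table, against 0 of 5 histone genes. The authors' test pools reads over libraries and so takes no account of the spread between them. The median log2 ratio to IgG was 0.52 over the 36 members with reads in both PABPC4 RIP and IgG, against 0.69 over all 11630 such genes, and -0.32 over the 34 members with reads in both PABPC1 RIP and IgG, against 0.27 over all 11020 such genes. Scaling by nuclear reads moved the medians of all genes to -0.28 and -0.22 and those of the members to -0.46 and -0.81. The 2 comparisons share their IgG libraries. In RPM, both PABPC4 libraries lay above both IgG libraries for 16 of 24 histone genes with enough reads to fit, and below for 1. All 7987 fitted genes gave 73.3% and 2.50%, and most of the 24 needed their PABPC4 reads to pass the read filter. Both PABPC1 libraries lay above both IgG libraries for 5 of the 24 and below for 5, where all fitted genes gave 43.8% and 6.79%.

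Among the linker histones, HIST1H1E (ENSG00000168298, H1-4 in RefSeq) encodes H1.4, which binds linker DNA between nucleosomes. It had 586 and 548 reads in PABPC4 RIP, 140 and 154 in PABPC1 RIP, and 48 and 39 in IgG, which made 689 and 651, 484 and 555, and 361 and 414 RPM. The 3 groups did not overlap on this scale. The authors' deposited table listed it at 1.73-fold in PABPC4 RIP (adjusted p = 2.16e-05) and 1.34-fold in PABPC1 RIP (p = 0.0146, adjusted p = 0.384). The PABPC4 call did not hold once depth was scaled to nuclear reads, where the ratio was 0.892 (adjusted p = 1). HIST1H1C (ENSG00000187837, H1-2 in RefSeq) encodes H1.2, another linker histone of dividing and resting cells. It had 262 and 288 reads in PABPC4 RIP, 57 and 53 in PABPC1 RIP, and 18 and 17 in IgG, or 308 and 342, 197 and 191, and 135 and 180.4 RPM. The groups again did not overlap. The authors' deposited table listed it at 2.06-fold in PABPC4 RIP (adjusted p = 0.000555) and 1.23-fold in PABPC1 RIP (adjusted p = 1). Its PABPC4 call did not hold on nuclear reads either, where the ratio was 1.075 (adjusted p = 1), nor under median of ratios at 1.096 (adjusted p = 1) or limma voom at 1.07 (adjusted p = 0.89). Both PABPC4 calls were lost without IgG library A, at ratios of 1.62 for HIST1H1E (adjusted p = 0.113) and 1.80 for HIST1H1C (adjusted p = 0.403).

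HIST1H1B, which encodes H1.5, had 49 and 43 reads in PABPC4 RIP, 13 and 10 in PABPC1 RIP, and 3 and 1 in IgG. Both RIP groups lay above IgG in RPM, and on that scale the exact interval of the PABPC4 ratio, 3.09, ran from 1.17 to 11.6. Limma voom with median-of-ratios scaling did not call it, at a log2 fold over IgG of 0.46 ± 0.57 SE in PABPC4 RIP (adjusted p = 0.724). Its ratio of 2.31 in PABPC1 RIP (0.788 to 9.17) was the highest of the 7 members with at least 20 reads over PABPC1 RIP and IgG. HIST1H1D, which encodes H1.3, had 9 and 17 reads in PABPC4 RIP, 0 and 4 in PABPC1 RIP, and 2 and 0 in IgG, too few to order the groups. HIST1H1A and the testis gene HIST1H1T had 2 and 3 reads in all.

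A short element upstream of most H1 genes was found in none of the windows of the other families. The 3 H1 genes with the most reads are shown by the 130 bases before their start, read from RefSeq on GRCh38.p14 as the sense strand, with 4 motifs in capitals. They are the H1 box (AAACACA), the CCAAT box, the TATA box (TATAAA) and its relative TATATA; the last pair overlap in HIST1H1E. HIST1H1E lies on the plus strand (chr6:26156199-26156328), HIST1H1C on the minus strand (chr6:26056471-26056600) and HIST1H1B on the minus strand (chr6:27867589-27867718).
HIST1H1E: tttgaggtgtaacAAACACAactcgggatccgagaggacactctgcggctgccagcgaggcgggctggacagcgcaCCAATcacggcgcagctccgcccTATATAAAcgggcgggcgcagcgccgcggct
HIST1H1C: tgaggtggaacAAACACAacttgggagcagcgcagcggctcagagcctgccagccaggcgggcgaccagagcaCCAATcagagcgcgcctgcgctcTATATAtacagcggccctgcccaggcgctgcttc
HIST1H1B: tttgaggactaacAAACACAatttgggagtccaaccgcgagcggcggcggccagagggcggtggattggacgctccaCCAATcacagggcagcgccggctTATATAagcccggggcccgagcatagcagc
In these windows AAACACA began at -117, -119 and -117, and CCAAT at -54, -57 and -53, counted from the gene's start.

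On either strand, AAACACA was in 5 of the 6 H1 windows and in 0 of the 15 H2A, 13 H2B, 13 H3 and 13 H4 windows found, against 2.31% of 34943 promoter windows of the same length. CCAAT was in 83.3% of the 60 histone windows, against 21.5% of all windows; the H4 genes held it in 3 of 13, and the H1, H2A, H2B and H3 genes in every window found. TATAAA was in 58.3% of the histone windows, against 6.004% of all, and TATATA in 5 of 6 H1 windows, against 1.97% of all. These matches describe the letters in the windows and no measurement here bears on the factors that bind them.

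H2B had the most members with at least 20 reads, 14 of 22, and several of its leading genes were higher in PABPC4 RIP than in both other groups in RPM. Many core histone genes are near-identical in their coding part, and the sources used here do not say how reads matching several copies were counted, so values of single core genes are uncertain. HIST1H2BD had 103 and 115 reads in PABPC4 RIP, 26 and 19 in PABPC1 RIP, and 10 and 4 in IgG, or 121 and 137, 89.9 and 68.5, and 75.2 and 42.5 RPM. Both PABPC4 libraries lay above all others while PABPC1 and IgG overlapped. The authors' deposited table listed it at 2.19-fold in PABPC4 RIP (adjusted p = 0.103) and 1.35-fold in PABPC1 RIP (adjusted p = 1). HIST1H2BC had 100 and 105 reads in PABPC4 RIP, 24 and 30 in PABPC1 RIP, and 9 and 9 in IgG, or 118 and 125, 83.0 and 108, and 67.7 and 95.5 RPM. Its ratio to IgG was 1.53 in PABPC4 RIP (interval 0.944 to 2.63) and 1.203 in PABPC1 RIP (0.695 to 2.18).

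HIST2H2BE, in the smaller cluster on chromosome 1, had 52 and 57 reads in PABPC4 RIP, 11 and 7 in PABPC1 RIP, and 5 and 4 in IgG. Its ratio to IgG was 1.63 in PABPC4 RIP (0.826 to 3.65) and 0.802 in PABPC1 RIP (0.342 to 2.03). HIST1H2BG had 37 and 38 reads in PABPC4 RIP, 7 and 2 in PABPC1 RIP, and 2 and 1 in IgG. Its RPM ratio of 3.36 in PABPC4 RIP had an interval of 1.11 to 16.7. Limma voom with median-of-ratios scaling gave a log2 fold over IgG of 0.43 ± 0.61 SE there (adjusted p = 0.768). HIST1H2BN, with the greatest recovered length, 5477 bases, had 30 and 34 reads in PABPC4 RIP, 3 and 4 in PABPC1 RIP, and 0 and 3 in IgG. HIST1H2BK had 30 and 26 reads in PABPC4 RIP, 3 and 3 in PABPC1 RIP, and 3 and 1 in IgG. The other leading H2B genes, HIST1H2BJ, HIST1H2BF, HIST1H2BO, HIST1H2BB, HIST2H2BF and HIST1H2BL, had 36 to 47 reads in all, and none had an interval to IgG that left out 1.

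In H2A, HIST1H2AJ and HIST1H2AC lay on opposite sides of IgG in PABPC4 RIP. HIST1H2AJ (H2AC14 in RefSeq) had 34 and 31 reads in PABPC4 RIP, 5 and 2 in PABPC1 RIP, and 0 and 0 in IgG. PABPC4 RIP was the highest, at 39.99 and 36.9 RPM, against 17.3 and 7.21 in PABPC1 RIP. Set against a floor of 3 reads summed over the IgG libraries, its PABPC4 ratio was 2.91 in RPM and 1.48 in nuclear RPM. The lower limits of the exact 95% intervals were smaller, at 2.301 and 1.17. HIST1H2AJ was not called under totals over nuclear-encoded genes, and its 7 PABPC1 reads were too few for a fold. The authors' deposited table gave it an adjusted p of 0.0775 in PABPC4 RIP. It passed under Fisher's exact test, which called 7.29% of 21423 genes higher and 0.789% lower. It also passed under limma voom (log2 fold 2.19 ± 0.64 SE, adjusted p = 0.0427), which called 1.69% of 7987 genes higher and 2.19% lower. The gene entered that fit only through its PABPC4 reads, so its limma voom call is not independent of the read filter. HIST1H2AC had 30 and 24 reads in PABPC4 RIP, 7 and 5 in PABPC1 RIP, and 5 and 5 in IgG, or 35.3 and 28.5, 24.2 and 18.0, and 37.6 and 53.1 RPM. Both IgG libraries were the highest. Its ratio to IgG was 0.726 in PABPC4 RIP (0.366 to 1.60) and 0.481 in PABPC1 RIP (0.191 to 1.24), the lowest of those 7 members, and limma voom gave -1.52 ± 0.46 SE in PABPC4 RIP (adjusted p = 0.0562). HIST1H2AE and HIST1H2AG had ratios of 1.14 and 0.729 in PABPC4 RIP and 0.535 and 0.458 in PABPC1 RIP, with intervals that held 1. HIST1H2AH had 16 and 14 reads in PABPC4 RIP, 0 and 3 in PABPC1 RIP, and 1 and 0 in IgG; its ratio of 4.03 in PABPC4 RIP rested on that 1 IgG read (0.670 to 164).

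H3 and H4 genes were sparse. HIST1H3H had 16 and 14 reads in PABPC4 RIP, 10 and 6 in PABPC1 RIP, and 1 and 1 in IgG, or 18.8 and 16.6, 34.6 and 21.6, and 7.52 and 10.6 RPM. It was the only gene of the 20 with the most reads whose PABPC1 libraries both lay above both PABPC4 libraries. HIST1H4C had 6 and 10 reads in PABPC4 RIP, 1 and 2 in PABPC1 RIP, and 2 and 3 in IgG, and its ratio of 0.430 in PABPC4 RIP (0.151 to 1.501) was the lowest of the members with at least 20 reads over PABPC4 RIP and IgG. The 25 members with 1 to 19 reads had 114 reads in all, 10 of them a single read, and no order of groups is given for them.

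**Figure D3:**
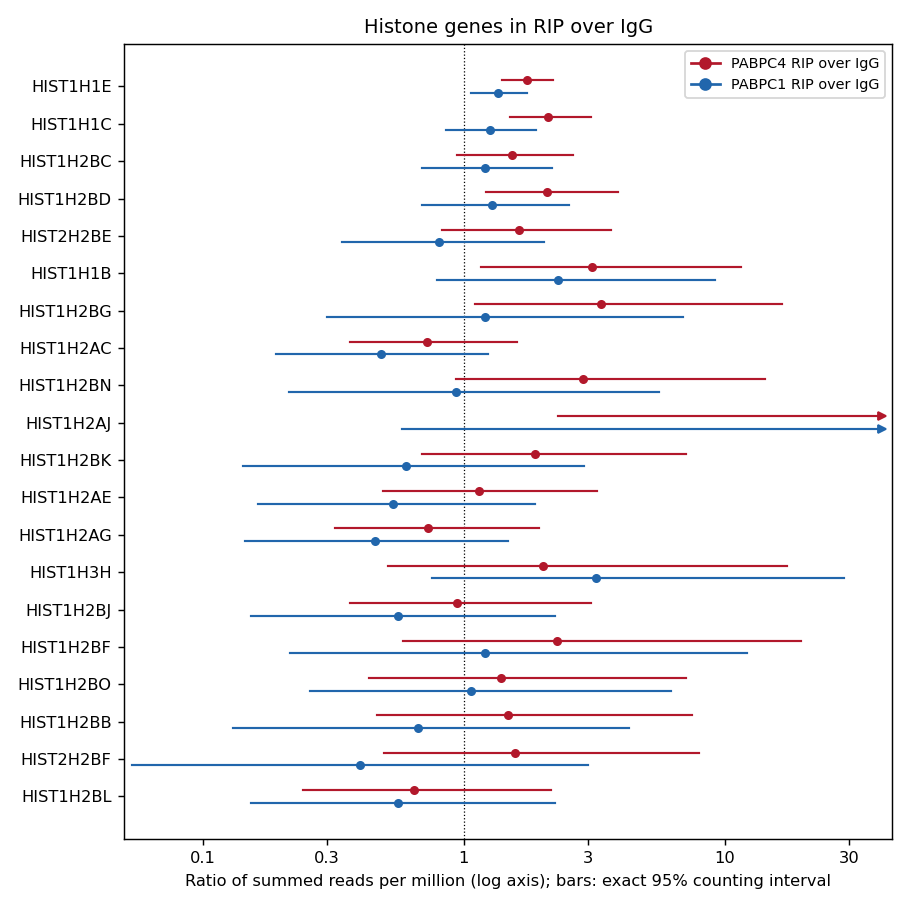
Ratio of RPM over IgG (log axis) for the 20 histone genes with the most reads, PABPC4 RIP above PABPC1 RIP in each pair; bars are exact 95% counting intervals and arrowheads mark bars that run past the axis, as for HIST1H2AJ with 0 IgG reads. Only the first genes have narrow bars, and PABPC4 is above PABPC1 for every gene with a ratio except HIST1H3H.

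Set against PABPC1 RIP, PABPC4 RIP gave mostly higher histone levels in RPM, but 0 of the 24 fitted histone genes passed limma voom with median-of-ratios scaling. That fit called 2.19% of 7987 genes higher in PABPC4 RIP and 2.28% lower at an adjusted p under 0.05. The median standard error of the 24 members was 0.53 on the log2 scale. In simulated data the fit called 50% of genes raised 2-fold, and those had more reads than most members, so 0 calls do not show equal levels. At an unadjusted p under 0.05, 3 histone genes were higher (HIST1H2BG, HIST1H2AH and HIST1H2AJ) and 1 lower (HIST1H3H), where all fitted genes gave 7.79% and 8.59%, and the smallest adjusted p was 0.14, of HIST1H3H. The fold was positive for 18 genes and negative for 6, with a median of 0.25 on the log2 scale, against -0.029 over all genes fitted. Only HIST1H1E, HIST1H1C, HIST1H2BC, HIST1H2BD and HIST1H1B had at least 10 reads in both PABPC1 libraries. Their log2 folds were -0.11, 0.26, -0.14, 0.22 and -0.084. Every other fitted member needed its reads in the deeper PABPC4 libraries to pass the read filter. The counts of signs, the medians and the single folds of those members are therefore not independent of the filter. Under library totals the medians were 0.71 and 0.45, and HIST1H1C, HIST1H1E, HIST1H2BG and HIST1H2AJ, 4 of 24 members, passed as higher in PABPC4 RIP, where 13.9% of all fitted genes did and 0.676% passed as lower. With no filter, 1 of 53 members passed as lower and 0 as higher, where 7.19% and 0.828% of 22100 genes did. In RPM, both PABPC4 libraries lay above both PABPC1 libraries for 18 of the 24 genes and below for 1, where all fitted genes gave 57.4% and 5.77%.

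HIST1H1E, with the most reads, had a log2 fold of -0.11 ± 0.11 SE (adjusted p = 0.696) and HIST1H1C 0.26 ± 0.17 SE (adjusted p = 0.466). The highest fold was 1.497 ± 0.70 SE, of HIST1H2AH, whose PABPC1 libraries had 0 and 3 reads, followed by HIST2H2BF at 1.135 ± 0.62 SE. HIST1H3H was the lowest at -1.14 ± 0.43 SE (adjusted p = 0.14). By family the median was 0.63 over 5 H2A genes, all positive, 0.53 over 12 H2B genes, 10 of them positive, 0.11 over 3 H3 genes and -0.084 over 3 H1 genes, and the H4 gene fitted, HIST1H4B, stood at -0.70 ± 0.53 SE. The H2A and H2B medians rest mostly on genes that needed their PABPC4 reads to pass the read filter. Summed per nuclear read over all members of a family, PABPC4 over PABPC1 was 1.25 for H2B (interval 1.07 to 1.47) and 0.998 for H1 (0.898 to 1.11).

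**Figure D4:**
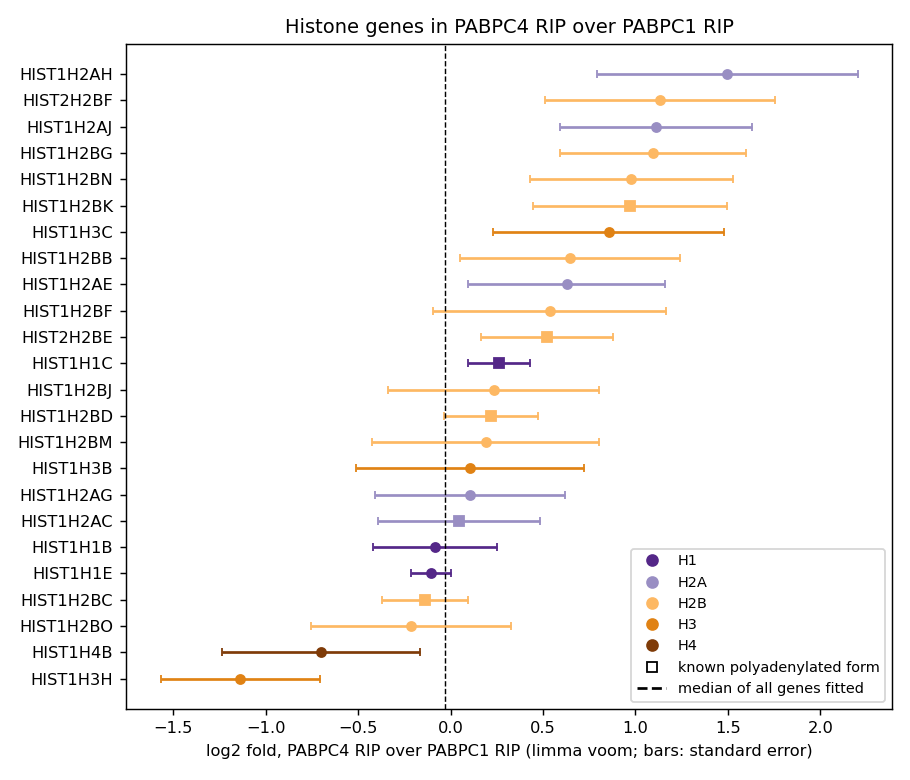
Log2 fold of PABPC4 RIP over PABPC1 RIP for the 24 histone genes fitted (limma voom), with bars for the standard error, colours for the family, squares for genes known to have a polyadenylated form and a dashed line at the median of all genes, -0.029. Most H2A and H2B genes lie to the right of the line, the H1 genes lie near it and HIST1H3H lies farthest left. Most of the genes shown needed their PABPC4 reads to pass the read filter.

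The members with a known polyadenylated form were HIST1H1C, HIST1H2AC, HIST1H2BC, HIST1H2BD, HIST1H2BK and HIST2H2BE. They held 36.7% of histone reads in PABPC4 RIP (35.1% to 38.4%), 33.8% in PABPC1 RIP (30.4% to 37.4%) and 34.4% in IgG (28.6% to 40.4%). Per nuclear read their summed ratio to IgG was 0.906 in PABPC4 RIP (0.731 to 1.13) and 0.778 in PABPC1 RIP (0.608 to 1.00), and that of the other members 0.816 (0.698 to 0.959) and 0.796 (0.667 to 0.953). Their median log2 fold of PABPC4 over PABPC1 was 0.24 over 6 genes, against 0.38 over 18 others, and 0 of either passed at an adjusted p under 0.05. The read counts do not tell a tailed from an untailed transcript of the same gene. The list holds known cases only, so some of the other members may also have a polyadenylated form. Recovered lengths did not follow the list, at 5477 bases for HIST1H2BN and 3196 for HIST2H2BF outside it and 381 for HIST1H2BK within it.

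Other genes of the pathway, whose mRNAs are mostly polyadenylated, were set beside the members. In the authors' deposited tables, PABPC4 RIP was higher than IgG for 3 of 26 histone mRNA processing and decay factors and PABPC1 RIP for 0, with 0 lower in either; over all genes 5.54% were higher in PABPC4 RIP, and 14.0% of those with at least 20 PABPC4 reads. In PABPC1 RIP the authors' test called 1.34% of all genes higher, and 6.48% of those with at least 20 PABPC1 reads. Against IgG, limma voom with median-of-ratios scaling called 0 of the 22 factors, 17 S-phase genes and 10 replication-independent histone genes it fitted, for either antibody. Over all genes it called 1.69% higher and 2.19% lower in PABPC4 RIP, and 0.351% and 0.513% in PABPC1 RIP. With lists this short, 0 calls lie near those shares. The 3 factors called by the authors' test were ZCCHC11 at 3.58-fold (adjusted p = 0.000697), a terminal uridylyltransferase, SRRT at 2.52-fold (adjusted p = 0.0199), a factor bound to the cap-binding complex, and CASP8AP2 at 2.64-fold (adjusted p = 0.0434), a protein of histone locus bodies. In PABPC1 RIP the smallest p of the list was that of ZCCHC11, at 0.00991 in the authors' deposited table (adjusted p = 0.301). SLBP itself had 57 and 59 reads in PABPC4 RIP, 14 and 20 in PABPC1 RIP, and 6 and 1 in IgG, and the authors' deposited tables listed it at 2.46-fold in PABPC4 RIP (adjusted p = 0.362) and 2.16-fold in PABPC1 RIP (adjusted p = 1). Of 20 S-phase replication genes, RFC1, a clamp loader subunit, and MCM4, a helicase subunit, were higher in PABPC4 RIP, at 3.07-fold and 4.68-fold in the authors' deposited table (adjusted p = 2.02e-05 and 0.0475), and 0 passed in PABPC1 RIP. Of 11 replication-independent histone genes, only H1F0, a linker histone of resting cells, passed in either of the authors' deposited tables, at 2.36-fold in PABPC4 RIP (adjusted p = 4.27e-19) and 2.12-fold in PABPC1 RIP (adjusted p = 5.62e-12). Under limma voom its log2 fold over IgG was 0.27 ± 0.15 SE in PABPC4 RIP (adjusted p = 0.345) and 0.59 ± 0.16 SE in PABPC1 RIP (adjusted p = 0.0636). H1F0 had 1115 and 1114 reads in PABPC4 RIP, 350 and 322 in PABPC1 RIP, and 81 and 48 in IgG, and limma voom placed PABPC4 RIP below PABPC1 RIP by a log2 fold of -0.32 ± 0.08 SE (adjusted p = 0.0109).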

How the data were processed

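The authors deposited 2 tables of comparisons, PABPC4 RIP and PABPC1 RIP each against IgG; per the file headers they hold a fold (a linear ratio), a p-value and a Benjamini-Hochberg adjusted p per gene, and 0 columns of single libraries. Per the submitters' processing notes, the builds were GRCh38 and hg38 and the tools featureCounts 2.0.1, STAR 2.7.10a and Bowtie2 2.4.1, with no step given for each. The labels' protocols describe random-primed SMART-seq libraries. The deposited values were matched by a Yates-corrected chi-square test of summed reads and by mean RPKM over the IgG mean plus 0.005, which gave whole reads per library for 22100 of 22607 genes with a p-value; 950 of 950 genes with 1 IgG read then gave whole gene lengths (tolerance 0.001 bases). Where several solutions fitted, as for 11 members of up to 33 reads, the smallest was taken. The same pair of IgG libraries, pooled, served both comparisons.

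Members and gene lists were chosen with earlier results of these data known. Calls are the authors' adjusted p under 0.05; PABPC4 against PABPC1 was tested with limma 3.58.1 voom in R 4.3.3 (3 groups, at least 10 reads in at least 2 libraries, median-of-ratios scaling, residual df 3, prior df 33.7), and the steps were checked on simulated data. Intervals are exact binomial at 95% and, like floors of 3 reads, cover counting error only. The files held no count column, so no count model was run. Named genes were those called, the 20 with the most reads, the polyadenylated-form list, the extreme folds among genes with at least 20 reads, and genes at 0 in a group with at least 10 reads in another. Scaling, filter, test and left-out libraries were varied. Promoters came from RefSeq on GRCh38.p14, where 70 members had a place and 60 a promoter window.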

Additional observations from a re-analysis of the deposited data

How the results depend on the processing

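No paired analysis was possible because the deposited tables carry no replicate numbers. For PABPC4 against IgG, the 2 calls became 0 under totals over nuclear-encoded genes, 0 under median of ratios and 1 under limma voom (HIST1H2AJ); they stayed the same genes without either PABPC4 library or IgG library B, and the count ranged from 0 to 2 with a library left out. Over all genes, nuclear totals called 111 of 21393 higher and 436 lower, and median of ratios 118 of 21423 and 433. Under both, 0 of 54 members lies near the share over all genes. Limma voom called 135 of 7987 higher and 175 lower, and HIST1H2AJ entered that fit only through its PABPC4 reads. Fisher's exact test and at least 10 summed reads each called 3 members, adding HIST1H2AJ, where 1562 of 21423 and 1397 of 11099 genes were higher. HIST1H1E turned to 0.892 under nuclear totals, 0.909 under median of ratios and 0.899 under limma voom. For PABPC1 against IgG, 0 of 45 members were called under Fisher's exact test, nuclear totals or median of ratios. Over all genes these called 310 of 17558, 26 of 17534 and 27 of 17558 higher. With at least 10 summed reads 0 of 19 members were called, and under limma voom 0 of 24. Those settings called 315 of 7268 and 28 of 7987 genes higher. With so few members, 0 calls lie near these shares. The median log2 ratio to IgG of 0.52 in PABPC4 RIP became -0.46 under nuclear totals and -0.43 under median of ratios, and ranged from 0.29 to 0.68 with a library left out; that of -0.32 in PABPC1 RIP became -0.81 and -0.79 under the same scalings, 0.10 with at least 10 summed reads (zeros set to 3), and ranged from -0.51 to -0.29 with a library left out. For PABPC4 against PABPC1, 0 calls became 4 of 24 under library totals, where 13.9% of all genes were higher and 0.676% lower, and 1 of 53 with no filter (HIST3H3, lower, from a single PABPC1 read), where 0.828% were higher and 7.19% lower; the median of 0.25 became 0.71 and -0.077 there, where that of all genes was 0.45 and -0.48, and ranged from 0.076 without PABPC1 library B to 0.40 without PABPC1 library A. Limma voom calls among all genes fell to 8 higher and 13 lower without PABPC1 library A and to 1 and 12 without PABPC1 library B, against 175 and 182, and a trend test on log2 values called 0 and 2. The median of members with a polyadenylated form minus that of the others, -0.14, was -0.29 without HIST1H1E and ranged from -0.14 to 0.11 with a library left out, the highest without PABPC1 library A; it was 0.056 with at least 5 reads and 0.71 with no filter. Summed histone RPM, 1918 in PABPC4 RIP, 1277 in PABPC1 RIP and 1153 in IgG, were 2390, 2228 and 2822 in nuclear RPM, 2589, 2432 and 3115 on protein-coding nuclear genes, and 1247, 759 and 770.0 without HIST1H1E. The cause of these shifts beyond the change of total was not tested. The 262 IgG reads limit all comparisons with IgG.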

Other observations

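Histone chaperones are proteins that hand histones to DNA, and their mRNAs are polyadenylated. Of 13 listed in the authors' deposited tables, 9 were higher than IgG in PABPC4 RIP and 4 in PABPC1 RIP, with 0 lower. Over all genes, 5.54% and 1.34% were called higher. Among genes with at least 20 reads in that RIP group, 14.0% and 6.48% were. Limma voom with median-of-ratios scaling called 2 of the 10 it fitted higher than IgG in PABPC4 RIP, NASP and SUPT16H, and 0 in PABPC1 RIP, where it called 1.69% and 0.351% of all genes higher. SUPT16H, a subunit of the FACT complex, was listed at 4.96-fold in PABPC4 RIP (adjusted p = 1.3e-20) and 2.04-fold in PABPC1 RIP (adjusted p = 0.0171) in the authors' deposited tables. NASP, which binds H1 and H3 with H4, was listed at 3.37-fold in PABPC4 RIP (adjusted p = 5.25e-19) and 2.09-fold in PABPC1 RIP (adjusted p = 4.43e-05) in the authors' deposited tables. In the limma voom comparison of PABPC4 RIP with PABPC1 RIP, SUPT16H was higher by 0.81 ± 0.14 SE on the log2 scale (adjusted p = 0.000176) and ATRX, a remodeler that deposits H3.3 with DAXX, by 0.67 ± 0.16 SE (adjusted p = 0.00665).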
